A study of Homo sapiens with 6 samples.

Results

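The BCL2-family survival and BH3-only genes comprise 10 of the 63129 genes listed in the deposited expression table. They were chosen by symbol, and each symbol stood on 1 row. The members are 5 survival genes (MCL1, BCL2, BCL2L1, BCL2L2 and BCL2A1) and 5 BH3-only genes (BCL2L11, PMAIP1, BBC3, BMF and BIK). Their mRNA was measured in 6 RNA-seq libraries of ERRAS cells, which are IMR90 human fibroblasts that stably carry a retroviral H-RasV12 fused to the estrogen receptor and so respond to tamoxifen. The construct was present in both groups. Control mitotic cells (3 libraries) received no tamoxifen, and Ras-induced mitotic cells (3 libraries) were induced for 4 days. The labels give 100 nM tamoxifen, while the study's methods give 4-hydroxytamoxifen by mass per volume. Both groups were arrested with 1 μM dimethylenastron (DME), an inhibitor of the spindle kinesin Eg5, and the detached cells were collected. This enriches for mitotic cells, and a minority of other cells can remain in each sample. The study describes independent repeats, but the sample labels do not say whether the 3 libraries of a group came from separate cultures, and the p-values below measure the spread between these libraries.

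BCL2-family proteins decide whether the outer mitochondrial membrane is opened during apoptosis. The survival proteins (Mcl1, Bcl-2, Bcl-xL from BCL2L1, Bcl-w from BCL2L2 and A1 from BCL2A1) hold the pore-forming proteins Bax and Bak in check. BH3-only proteins (Bim from BCL2L11, Noxa from PMAIP1, Puma from BBC3, Bmf and Bik) bind the groove of the survival proteins, and Noxa binds mainly Mcl1 and A1. Mcl1 is short-lived and is degraded while cells are held in mitosis, which is why its supply of mRNA is of interest in cells arrested with an Eg5 inhibitor. The comparison asks how the mRNA of MCL1 stood in Ras-induced mitotic cells against that of the other survival genes and of the BH3-only genes. Splice forms with opposed activity, such as the long and short forms of MCL1 and BCL2L1, are added together in values per gene.

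The genes lie on 8 chromosomes, and positions are given on GRCh37, the build to which the reads were aligned as hg19. MCL1 (ENSG00000143384) lies on chromosome 1 from 150533371 to 150552214 on the minus strand. BCL2A1 (ENSG00000140379) lies on chromosome 15 from 80253234 to 80263538 on the minus strand. PMAIP1 (ENSG00000141682) lies on chromosome 18 from 57567228 to 57571537 on the plus strand, and BCL2L1 (ENSG00000171552) on chromosome 20 from 30252255 to 30311792 on the minus strand. The library kit does not mark strand, so reads of genes that overlap on opposite strands cannot be told apart. BCL2L2 shares 16.8% of its annotated exonic bases with a read-through gene on the same strand, BCL2L2-PABPN1. BCL2L11 shares 10.8% of its exonic bases with the antisense gene MIR4435-2HG, and BCL2L1 shares 41.3% with the antisense gene ABALON, which was not analysed here.

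RefSeq promoter windows were found for 7 of the 10 members, with none for MCL1, BCL2L2 and BIK. The upstream 250 bases of 3 of them are shown because these genes stand for the 3 patterns described below: a survival gene that rose from a low level, a survival gene with a steady high level, and the most abundant BH3-only gene. They are written 5′ to 3′ on the gene's strand and end at the base before the start site, with coordinates on GRCh38.p14. Capitals mark matches, on either strand, to the letters TATAAA of a promoter box bound by the TATA-binding protein. They also mark TGACG, which is part of a cyclic-AMP response element, and no match overlapped another.
BCL2A1, chr15:79971197-79971446, minus strand: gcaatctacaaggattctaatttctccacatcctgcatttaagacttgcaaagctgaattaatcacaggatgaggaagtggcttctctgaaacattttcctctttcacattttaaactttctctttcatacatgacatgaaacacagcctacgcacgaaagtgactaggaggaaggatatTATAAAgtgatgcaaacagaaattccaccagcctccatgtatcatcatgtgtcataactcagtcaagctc
BCL2L1, chr20:31723964-31724213, minus strand: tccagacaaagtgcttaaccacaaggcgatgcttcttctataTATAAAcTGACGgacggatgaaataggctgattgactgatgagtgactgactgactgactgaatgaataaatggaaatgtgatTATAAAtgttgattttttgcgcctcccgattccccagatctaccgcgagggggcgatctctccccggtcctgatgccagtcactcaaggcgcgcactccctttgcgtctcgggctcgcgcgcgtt
PMAIP1, chr18:59899746-59899995, plus strand: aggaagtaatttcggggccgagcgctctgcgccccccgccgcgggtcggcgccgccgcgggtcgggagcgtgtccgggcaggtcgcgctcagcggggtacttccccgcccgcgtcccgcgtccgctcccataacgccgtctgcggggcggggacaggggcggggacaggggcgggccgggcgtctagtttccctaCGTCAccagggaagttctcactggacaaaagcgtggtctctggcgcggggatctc

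The BCL2A1 window was 38.8% G and C, against a median of 58.0% over 35116 windows of the same length, and 10.8% of the windows had a lower share. The PMAIP1 window was 72.8% G and C and the BCL2L1 window 50.0%. TATAAA was found in 10.7% of all windows and TGACG in 21.2%. Of the members, BCL2 and BMF also held TGACG. The other 4 motifs were searched in the same way, on both strands. The AP-1 motif TGANTCA (6.57% of all windows) was found among the members in BBC3, the FOXO motif TGTTTAC (2.98%) in BCL2L11, and the CArG box (1.16%), to which serum response factor binds, in BCL2. The ETS motif CCGGAAG (8.52%) was in none of the 9 windows of the 7 members. BCL2L1 and BMF have a second window each, which held no match to any of the 6 motifs. These matches are letters in a window and were not tested as binding sites.

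The deposited values are FPKM, the fragments of a gene scaled to transcript length and to the mapped fragments of the library, so levels of different genes can be set side by side. The limma test was applied to log2(FPKM + 1) of genes averaging 1 FPKM or more across the libraries, and fold changes are given on that scale, which understates changes of low genes. A gene is called altered where its p, adjusted by Benjamini-Hochberg over all 13993 tested genes, was at or under 0.05. Of these, 16.7% passed, with 11.0% higher after induction and 5.67% lower, and the median over the tested genes was 0.10 on the log2 scale. Higher genes made up 66.1% of the altered genes as deposited, but 48.5% after quantile normalization and 45.5% after scaling to a common upper quartile. The steps between low values put the depth of the other libraries at 0.841 to 1.17 times that of the first control library, and absolute depth is not known here.

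HRAS, whose reads can come from the construct or the endogenous gene, measured 1174, 1176 and 1140 FPKM in control and 1439, 1847 and 1473 FPKM in Ras-induced libraries. Its log2 fold change was 0.44 (adjusted p = 0.0431 from limma, and 0.0193 to 0.166 over the alternatives), and the call was lost whichever library was left out. All 10 fibroblast markers were tested and 4 were lower, namely COL1A2, THY1, DCN and LUM, where 5.67% of all tested genes were lower. The median log2 fold change of the 10 was -1.22, against 0.10 for all tested genes. Summed, the 10 measured 6085 to 7355 FPKM in control and 4476 to 5989 FPKM in Ras-induced libraries. All 10 mitotic markers were tested and 5 were lower (CCNB2, PLK1, BUB1, TOP2A and CENPF), against 5.67% of all tested genes. The median of these 10 was -0.23 on the log2 scale. Their sum was 1849 to 1907 FPKM in control and 1514 to 1665 FPKM in Ras-induced libraries. The 9 markers of epithelial, endothelial and blood cells summed to 9.90 to 19.8 FPKM and to 11.6 to 12.6 FPKM. KRT5 made up most of that sum. PECAM1 and CD3E were listed at 0 in all 6 libraries, PTPRC and CDH5 were at most at 0.0353 FPKM, and EPCAM fell between 0.880 and 1.80 FPKM in control and between 0.167 and 0.424 FPKM in Ras-induced libraries. The part of these shifts in the results below was not tested. In bulk RNA, fewer cells of a kind and less RNA per cell cannot be told apart.

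Of the 10 members, 6 reached the level needed for testing: all 5 survival genes and, among the BH3-only genes, PMAIP1. MCL1 and BCL2A1 were altered, both higher in Ras-induced mitotic cells, and no member was altered in the other direction (BCL2 had an unadjusted p of 0.0347 from limma). Among all tested genes 11.0% were higher. With so few members tested, and with BCL2A1 tested only because its Ras-induced values lifted its mean over the limit, the count describes these genes and is not a result about the group. The groups of libraries did not overlap for MCL1, BCL2A1 and BCL2 among the tested members, against 39.9% of all tested genes (27.1% higher and 12.8% lower).

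**Figure D1:**
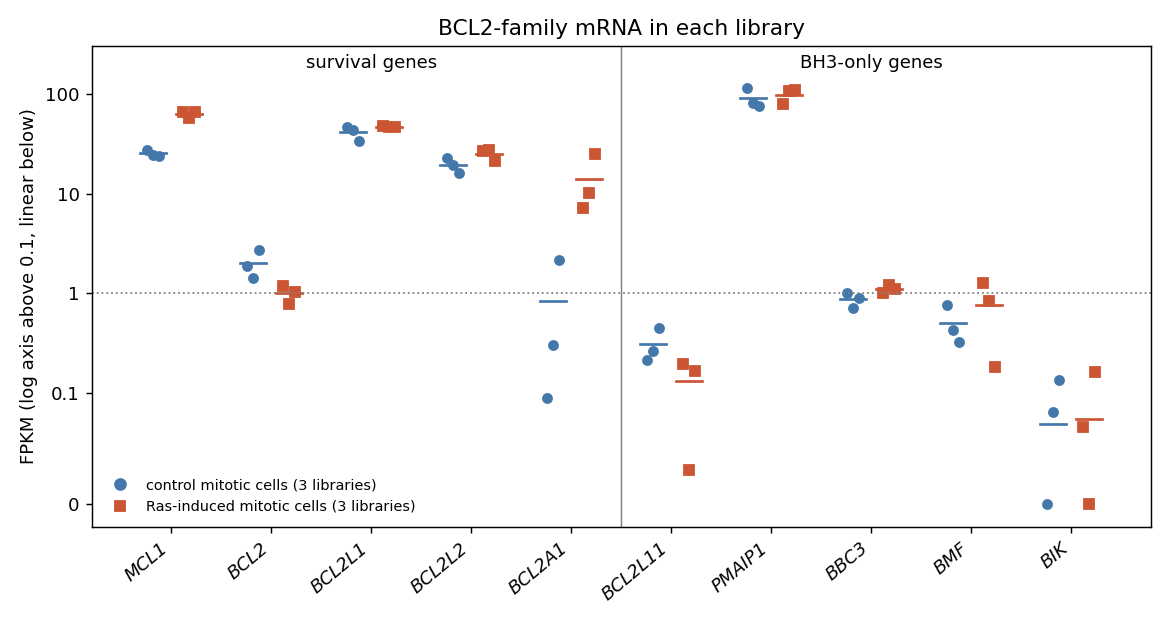
FPKM of the 10 members in each library, on an axis that is logarithmic above 0.1 FPKM and linear below, with 3 control (blue circles) and 3 Ras-induced libraries (orange-red squares) and their mean as a bar. The dotted line marks 1 FPKM. MCL1 and BCL2A1 lie higher in every Ras-induced library than in any control, and 4 of the 5 BH3-only genes lie near or under 1 FPKM in both groups.

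MCL1 was measured at 27.4, 24.5 and 23.9 FPKM in control, against 64.8, 57.6 and 64.9 FPKM in Ras-induced libraries. Every Ras-induced library was above every control, and within each group the libraries lay close together. The control mean was 25.3 ± 1.89 FPKM (SD, n = 3) and the mean after induction 62.4 ± 4.19 FPKM (SD, n = 3), which is 2.47 times as high. The log2 fold change was 1.27 (95% interval 1.05 to 1.49, standard error 0.09, adjusted p = 0.00148 from limma). Over all alternatives tried, the adjusted p ranged from 0.000451 to 0.0168 and MCL1 stayed above the control level by at least 1.16 on the log2 scale. Larger log2 fold changes were found for 335 of the 13993 tested genes. ADAMTSL4-AS1, which lies on the same strand and shares 5.27% of the exonic bases of MCL1, was listed at no more than 0.200 FPKM in any library.

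BCL2A1, which encodes the survival protein A1 and is known as a target of NF-κB, was measured at 0.0962, 0.304 and 2.14 FPKM in control, against 7.15, 10.02 and 24.7 FPKM in Ras-induced libraries. The lowest Ras-induced library was above the highest control, but the libraries of each group were far apart, and the library numbered 3 was the highest in each group. The means were 0.846 ± 1.12 FPKM (SD, n = 3) and 13.9 ± 9.40 FPKM (SD, n = 3). The log2 fold change was 3.00 (95% interval 1.71 to 4.29, standard error 0.54, adjusted p = 0.0153 from limma). Only 40 tested genes had a larger one. With a pseudocount of 0.1 FPKM the log2 fold change was 4.44. The call was lost without the first control library (adjusted p = 0.0663 from limma), without the second control library (0.0753), and without Ras-induced library 2 or 3 (0.0525 for each), as well as when all genes above 0 were tested (0.0507). The direction was the same in each case.

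BCL2L1, which encodes Bcl-xL, was measured at 46.5, 43.2 and 33.6 FPKM in control and at 47.8, 46.4 and 46.0 FPKM in Ras-induced libraries. The groups overlapped, and the highest control lay within the narrow Ras-induced range. Its log2 fold change was 0.19 (95% interval -0.10 to 0.49, adjusted p = 0.324 from limma). It was 0.06 without control library 3, 0.29 without control library 1 and 0.09 under both other scalings. The interval leaves room for a small difference in either direction and does not reach that of MCL1.

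BCL2L2, which encodes Bcl-w, was measured at 22.8, 19.1 and 15.9 FPKM in control and at 26.8, 27.0 and 21.1 FPKM in Ras-induced libraries. The highest control lay above the lowest Ras-induced library. The log2 fold change was 0.36 (95% interval -0.01 to 0.73, adjusted p = 0.157 from limma), and 0.24 without control library 3 and 0.48 without control library 1. The read-through gene BCL2L2-PABPN1 was listed at 15.9, 19.0 and 14.5 FPKM in control and at 25.9, 19.4 and 24.6 FPKM in Ras-induced libraries, with a log2 fold change of 0.48 (adjusted p = 0.068 from limma). Its groups did not overlap, and how reads were divided between these genes was not tested.

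BCL2, the founding member of the family, was near the limit of testing, at 1.89, 1.43 and 2.74 FPKM in control and at 1.18, 0.782 and 1.04 FPKM in Ras-induced libraries. Each Ras-induced library was below each control. The log2 fold change was -0.58 (95% interval -1.10 to -0.06), which did not pass the adjustment over all genes (adjusted p = 0.119 from limma, and 0.0743 to 0.209 over the alternatives), and it was -0.92 with a pseudocount of 0.1 FPKM. Of the survival genes it was the only one with a negative fold change.

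**Figure D2:**
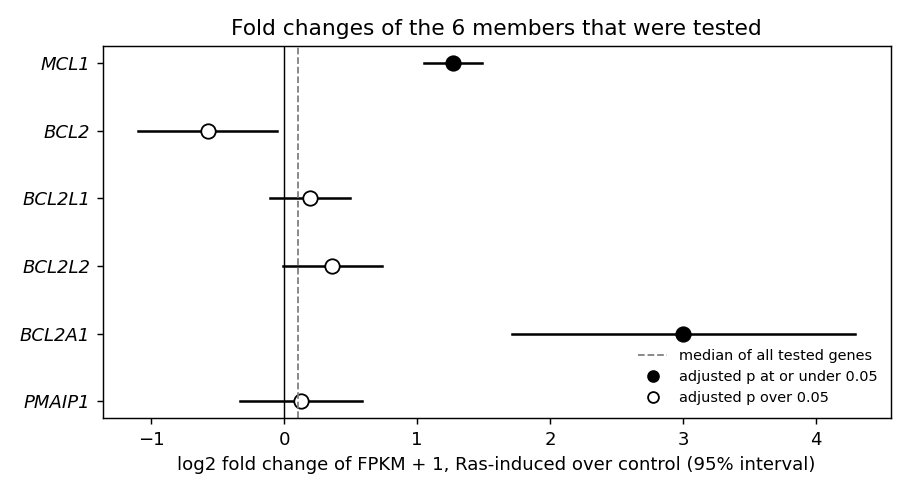
Log2 fold change of FPKM + 1 (Ras-induced over control) of the 6 tested members, with bars for the 95% interval from limma, filled points for an adjusted p at or under 0.05 and a dashed line at the median of all tested genes (0.10). The intervals of MCL1 (1.05 to 1.49) and BCL2A1 (1.71 to 4.29) lie above those of BCL2L1, BCL2L2, PMAIP1 and BCL2.

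Among the BH3-only genes, PMAIP1 was by far the most abundant. Its mRNA was measured at 113.6, 80.8 and 74.5 FPKM in control and at 78.3, 105.4 and 108.0 FPKM in Ras-induced libraries. The groups overlapped over most of their range. The log2 fold change was 0.13 (95% interval -0.33 to 0.59, adjusted p = 0.684 from limma), and it was 0.01 without control library 3, 0.31 without control library 1 and 0.02 after scaling to a common upper quartile. PMAIP1 had a higher mean level than 91.2% of the tested genes, against 79.1% for MCL1.

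BBC3, whose product Puma is induced by p53, missed the limit of testing narrowly with a mean of 0.994 FPKM. It was measured at 1.02, 0.712 and 0.896 FPKM in control and at 1.01, 1.20 and 1.12 FPKM in Ras-induced libraries, so the groups overlapped at their edge. BMF was measured at 0.759, 0.430 and 0.330 FPKM in control and at 1.27, 0.834 and 0.185 FPKM in Ras-induced libraries, where both the highest and the lowest of the 6 values stood in the Ras-induced group.

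BCL2L11, whose product Bim is phosphorylated by ERK and then degraded, was measured at 0.216, 0.265 and 0.455 FPKM in control and at 0.199, 0.0309 and 0.166 FPKM in Ras-induced libraries. All 3 Ras-induced values were below the controls, at levels where the share of fragments from the antisense MIR4435-2HG (means of 156.8 and 187.4 FPKM) was not tested. BIK was listed at 0, 0.0830 and 0.135 FPKM in control and at 0.0698, 0 and 0.162 FPKM in Ras-induced libraries. When all genes above 0 in a library were tested, none of these 4 genes was altered, with unadjusted p-values from limma of 0.0661 for BCL2L11, 0.22 for BBC3, 0.508 for BMF and 0.941 for BIK and adjusted p-values of 0.29 or more.

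Set in order of their mean FPKM, the members ran PMAIP1, BCL2L1, MCL1, BCL2L2, BCL2, BBC3, BCL2A1, BMF, BCL2L11 and BIK in control mitotic cells. From PMAIP1 to BCL2 each gene was above the next in rank with no overlap between libraries, while BBC3 and BCL2A1, BCL2A1 and BMF, and BMF and BCL2L11 overlapped. BIK lay below BCL2L11 without overlap. In Ras-induced cells the order was PMAIP1, MCL1, BCL2L1, BCL2L2, BCL2A1, BBC3, BCL2, BMF, BCL2L11 and BIK. MCL1 thus stood above BCL2L1 in each Ras-induced library and below it in each control library. BCL2A1 moved up to a range that overlapped that of BCL2L2, and from BBC3 downward each gene overlapped with the next.

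The FPKM of the 5 survival genes added up to 98.7, 88.6 and 78.3 in control and to 147.7, 141.8 and 157.8 in Ras-induced libraries. MCL1 made up 27.8%, 27.7% and 30.5% of this sum in control and 43.9%, 40.6% and 41.1% in Ras-induced libraries. BCL2L1 was the largest component in every control, at 42.9% to 48.8%, and came after MCL1 in every Ras-induced library, at 29.2% to 32.7%. The share of BCL2A1 was 0.0975% to 2.73% in control and 4.84% to 15.6% in Ras-induced libraries. These shares are sums over genes chosen as members, and no test is attached to them.

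**Figure D3:**
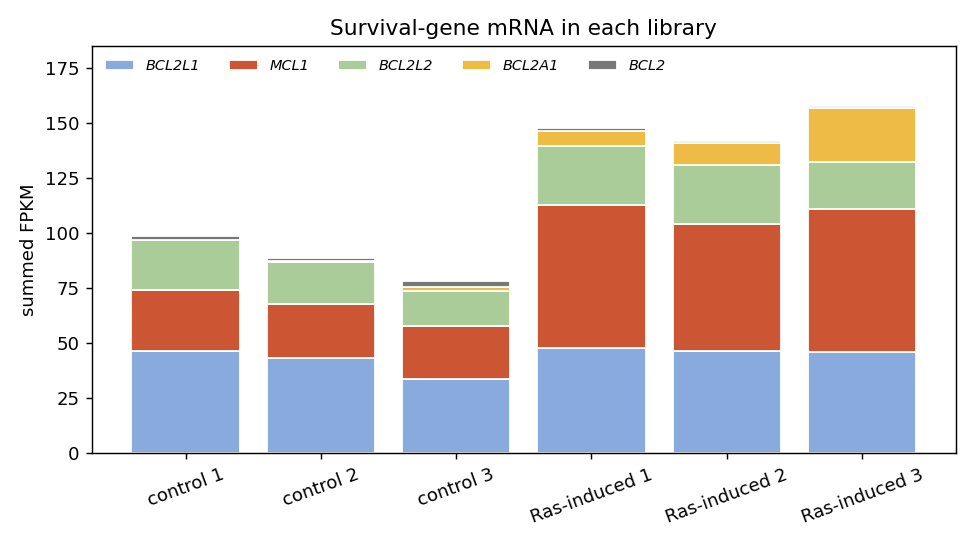
Summed FPKM of the 5 survival genes in each of the 6 libraries, stacked by gene. The total lies between 78.3 and 98.7 FPKM in the controls and between 141.8 and 157.8 FPKM in the Ras-induced libraries, and most of the added height is MCL1 and BCL2A1.

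The FPKM of the 5 BH3-only genes added up to 115.6, 82.3 and 76.3 in control and to 80.9, 107.4 and 109.6 in Ras-induced libraries, and PMAIP1 made up at least 96.8% of the sum in each library. The ratio of the survival sum to the BH3-only sum was 0.985 ± 0.117 (SD, n = 3) in control and 1.53 ± 0.265 (SD, n = 3) in Ras-induced libraries. The ratio of MCL1 to PMAIP1, which encode partners that bind each other, was 0.242, 0.303 and 0.321 in control and 0.827, 0.546 and 0.601 in Ras-induced libraries. PMAIP1 mRNA therefore exceeded MCL1 mRNA in all 6 libraries, by less in the Ras-induced ones. These are ratios of mRNA and say nothing of protein.

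MCL1 was then set against each other member inside each library, as log2(MCL1 + 1) minus log2(member + 1). The scaling of the library largely cancels in this difference for members well above 1 FPKM. It does not for members near or under 1 FPKM, where the added 1 FPKM weighs as much as the member or more. Against BCL2L1 this difference was -0.74, -0.79 and -0.48 in control and 0.43, 0.30 and 0.49 in Ras-induced libraries, a shift of 1.08. Against BCL2L2 the shift was 0.91 and against BCL2 1.85. Against the BH3-only genes it was 1.14 for PMAIP1, 1.10 for BBC3, 1.08 for BMF, 1.48 for BCL2L11 and 1.26 for BIK. On this scale the changes of BBC3, BMF, BCL2L11 and BIK lay between -0.21 and 0.19, against 1.27 for MCL1, and the added 1 FPKM limits the changes of genes this low.

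The groups did not overlap for 8 of the 9 pairs, with MCL1 relatively higher in Ras-induced libraries. With a pseudocount of 0.1 FPKM the count was 6, since the pairs with BMF and BIK then overlapped (exact permutation p = 0.2 for each). MCL1 gained in this way on 93.0% of the 13992 other tested genes, so the count reflects MCL1 and not the choice of the other members. For each of the 8 pairs the exact two-sided permutation p was 0.1, the smallest that 3 libraries against 3 allow, and 0.112 when adjusted over the 9 pairs. BCL2A1 was the exception. Against it the difference was 4.70, 4.29 and 2.99 in control and 3.01, 2.41 and 1.36 in Ras-induced libraries, a shift of -1.73 with groups that just overlapped (exact permutation p = 0.2). With a pseudocount of 0.1 FPKM the shift was -3.14 and the groups did not overlap (exact permutation p = 0.1), nor did they after scaling to a common upper quartile (-1.76) or without control library 3 (-2.23).

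**Figure D4:**
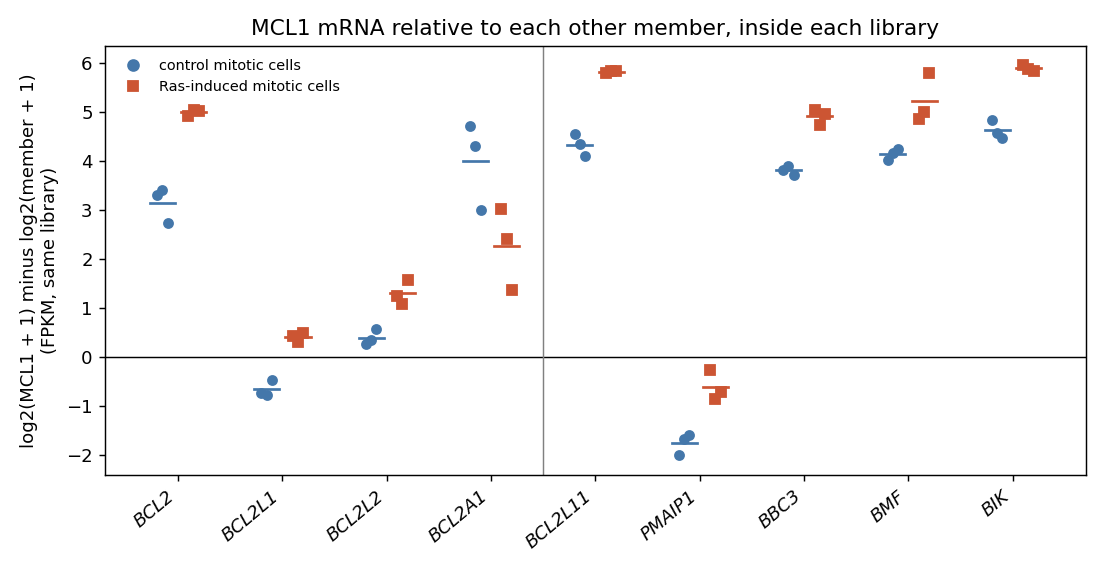
Difference log2(MCL1 + 1) minus log2(member + 1) in FPKM of the same library for each other member, with 3 control (blue circles) and 3 Ras-induced libraries (orange-red squares) and their mean as a bar. The value crosses 0 for BCL2L1, stays below 0 for PMAIP1 and moves down for BCL2A1 alone.

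The tested genes whose profile over the 6 libraries was most like that of MCL1 were found by the root mean square difference of log2(FPKM + 1), each gene centred on its control mean. They were SASH1 (0.0689), SPRED2 (0.0772), CCDC103 (0.0814), RAB3A (0.0846) and TMEM2 (0.102). SPRED2, which encodes an inhibitor of signalling from Ras to ERK, averaged 5.29 ± 0.718 FPKM (SD, n = 3) before and 14.8 ± 1.18 FPKM (SD, n = 3) after induction. SASH1 was measured at 20.1 ± 1.87 FPKM (SD, n = 3) and 47.0 ± 3.70 FPKM (SD, n = 3). CCDC103 and RAB3A averaged under 1 FPKM in control. The 5 genes were picked for likeness in the same libraries, and no test is attached.

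The partners of the members were described through a list of 23 other BCL2-family and mitochondrial death genes, of which 19 were tested and 4 were altered, 2 higher and 2 lower (background 16.7%). The median log2 fold change of the 19 genes was 0.24, against 0.10 for all tested genes. BOK, a relative of Bax and Bak, was measured at 24.2, 23.7 and 20.4 FPKM in control and at 11.7, 12.5 and 10.5 FPKM in Ras-induced libraries, and its log2 fold change was -0.92 (adjusted p = 0.00424 from limma). APAF1, the scaffold on which caspase-9 is activated, was measured at 21.8, 20.9 and 21.8 FPKM in control and at 15.6, 13.6 and 14.7 FPKM in Ras-induced libraries, and its log2 fold change was -0.52 (adjusted p = 0.0106 from limma). Both were also called, and lower, in all 13 alternatives, while without control library 1, control library 2 or Ras-induced library 1 they were the only 2 genes of the list that were called.

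VDAC1, a channel of the outer mitochondrial membrane, and AIFM1, a mitochondrial flavoprotein, were the 2 genes of that list that were higher, with log2 fold changes of 0.31 (adjusted p = 0.032 from limma) and 0.41 (0.0272). VDAC1 alone was called higher after quantile normalization, and neither was after scaling to a common upper quartile. Neither effector passed the threshold. BAX was measured at 160.0, 152.6 and 159.6 FPKM in control and at 179.9, 189.7 and 191.6 FPKM in Ras-induced libraries. Its groups did not overlap, and its log2 fold change of 0.25 missed the threshold narrowly (adjusted p = 0.0505 from limma). BAK1 had an adjusted p of 0.42 from limma. HRK, BCL2L10, BCL2L14 and BCL2L15 were too low to be tested.

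Of 13 genes that act on the stability of the Mcl1 protein, 12 were tested and 2 were altered, 1 higher and 1 lower, a share no larger than the 16.7% of all tested genes. Their median log2 fold change was -0.05, against 0.10 for all tested genes. USP13, a deubiquitinase of Mcl1, fell by 0.51 on the log2 scale (adjusted p = 0.0309 from limma). GSK3A, a kinase of the family that marks Mcl1 for degradation, rose by 0.40 (adjusted p = 0.0425 from limma), a call that was absent under both other scalings. Without single libraries this list held 0 to 2 altered genes, and none without the first or second control library or without any of the Ras-induced libraries (limma, with 2 to 4 genes at an unadjusted p under 0.05 in these fits). CDC20, which directs the degradation of Mcl1 in mitosis, measured 364.1 to 372.8 FPKM in control and 293.6 to 340.2 FPKM in Ras-induced libraries (adjusted p = 0.171 from limma).

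Of 19 transcription factors known to act on the members, 17 were tested and 3 were altered, 2 higher and 1 lower, a share close to the 16.7% of all tested genes. Their median log2 fold change was -0.11, against 0.10 for all tested genes. ELK1, a factor that is phosphorylated by ERK and acts with serum response factor, rose by 0.69 (adjusted p = 0.0294 from limma). HIF1A rose by 0.35 (adjusted p = 0.0356 from limma), a call absent under both other scalings. STAT3 fell by 0.32 on the log2 scale (adjusted p = 0.0495 from limma). The call of STAT3 held under both other scalings. It was absent with a pseudocount of 0.1 FPKM, without a trend and whichever library was left out. RELA and NFKB1, the NF-κB genes of this list, had log2 fold changes of -0.11 and -0.22 (adjusted p = 0.365 and 0.387 from limma). SRF had -0.09 and FOXO3 -0.11. None of the 17 was altered in limma without the first or second control library or without Ras-induced library 1 or 3 (4 to 7 had an unadjusted p under 0.05), and HIF1A alone was without the second.

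Of 12 targets of ERK signalling, all were tested and 9 were altered, 8 higher and 1 lower, where 11.0% of all tested genes were higher and 5.67% lower. Their median log2 fold change was 0.96, against 0.10 for all tested genes. DUSP6, a phosphatase of ERK, had the largest log2 fold change at 3.24 (adjusted p = 0.00198 from limma), with 1.92 to 3.31 FPKM in control and 21.2 to 39.8 FPKM in Ras-induced libraries. EGR1 had 2.00, DUSP4 1.65, IER3 1.41, SPRY2 1.20, SPRY4 1.01, DUSP5 0.92 and PHLDA1 0.87. MCL1, at 1.27, lay within this range. The call of SPRY4 was absent under both other scalings and whichever library was left out. DUSP5 was not called after scaling to a common upper quartile. With single libraries left out, DUSP5 was called only without Ras-induced library 2. DUSP4, at 0.129 to 0.315 FPKM in control and 2.40 to 3.44 FPKM in Ras-induced libraries, reached the level for testing only through its Ras-induced values. IER3 stood on 6 rows, of which the one with the highest mean was read. FOSL1, an AP-1 gene, was lower, with a log2 fold change of -1.18 (adjusted p = 0.00366 from limma).

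**Figure D5:**
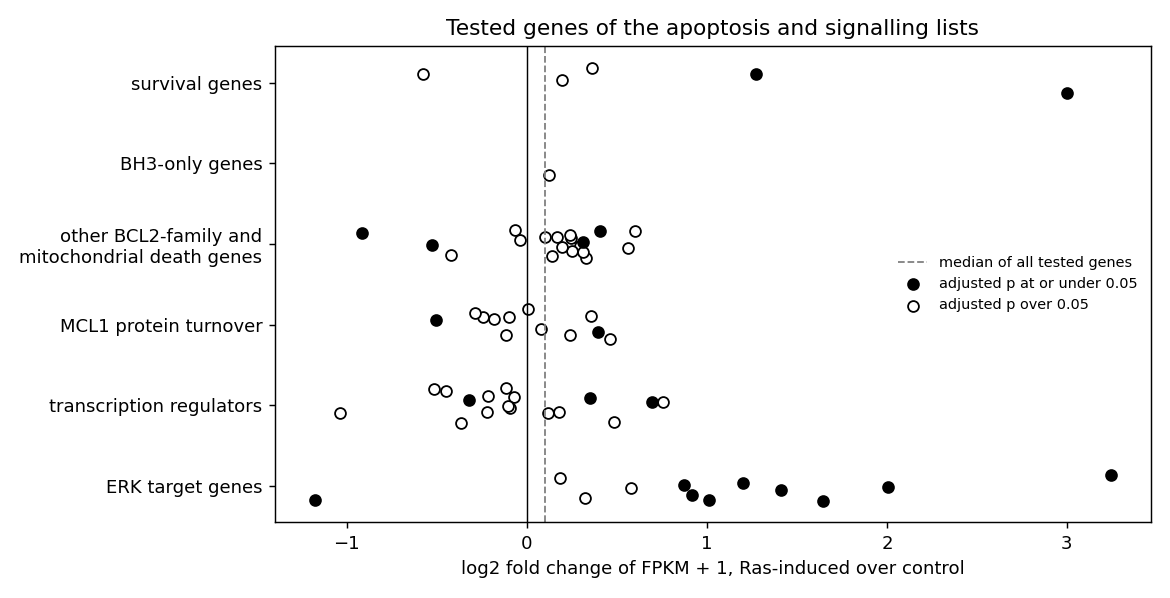
Log2 fold change of FPKM + 1 (Ras-induced over control) of each tested gene in 6 groups of genes, with filled points for an adjusted p at or under 0.05 and a dashed line at the median of all tested genes (0.10). MCL1 and BCL2A1 are the 2 filled points of the survival genes, and the filled points of the ERK targets other than FOSL1 run from 0.87 to 3.24.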

How the data were processed

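RNA-seq libraries were made from 3 samples per group, 6 in all. Reads were trimmed with Trim Galore 0.3.0 and aligned to hg19 with TopHat2, per the submitters' processing notes and the study's methods, and FPKM values per gene and library were calculated by the authors with Cufflinks and deposited as 1 table. Column names give the group and a number but not the sample, so columns were used as replicates of their group. A further 18 unnamed columns, the 120 genes with more than 6 values and 1 repeated header line were left out. The authors also deposited their cuffdiff comparison (FPKM per group, fold change, test statistic, p and q), which was not used.

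FPKM is not a count, so limma 3.58.1 in R 4.3.3 was used (lmFit and eBayes, with the variance trended on the mean; two-sided) on log2(FPKM + 1) for genes averaging 1 FPKM or more. Pairs of genes were compared with exact permutation tests. The limma fit was also run on simulated data in which every gene passed the filter and no low gene was changed. Its outcome is not given here, and it did not test low members. Coordinates are from GENCODE 44 on GRCh37, and promoter windows from RefSeq on GRCh38.p14. The genes named are the 10 members, HRAS, the altered genes of the lists, the 5 genes most like MCL1 and genes overlapping a member. BAX, BAK1, CDC20, RELA, NFKB1, SRF, FOXO3 and the marker genes, and the untested list genes, were named after their values were seen. Members and lists were chosen with earlier results of these data known. Alternatives were another pseudocount, 2 other filters, 2 scalings, no trend, a replicate block and each library left out. Without counts, absolute depth and counting error are not known here.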

Additional observations from a re-analysis of the deposited data

How the results depend on the processing

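MCL1 was altered under all 13 alternatives, with log2 fold changes of 1.16 to 1.33. The differences of 2 untested members changed sign, that of BMF to -0.02 without Ras-induced library 1, and that of BIK to -0.04 without control library 1 and -0.05 without Ras-induced library 3. The number of altered members, 2 as reported, was 1 (MCL1) when all genes above 0 were tested and 1 to 2 with single libraries left out. The lists and the count over all genes depended more on the processing. With all genes above 0 tested, 1518 genes were altered in place of 2336, with 0 of the Mcl1 stability list and 0 of the transcription factor list by limma (3 and 8 genes at an unadjusted p under 0.05). With at least 1 FPKM in 3 libraries 5 transcription factors were altered, and without a trend 1 was, together with 1 gene of the Mcl1 stability list. Quantile normalization and scaling to a common upper quartile gave 1 gene of the latter each. With single libraries left out, 860 to 1872 genes were altered, 2 to 4 of the mitochondrial death list, 0 to 2 of the Mcl1 stability list, 0 to 4 of the transcription factors and 6 to 8 of the ERK targets. The log2 fold change of HRAS was 0.323 to 0.503 without single libraries, with none of these 6 fits calling it altered. HRAS also lost its call, at a log2 fold change of 0.437, when all genes above 0 were tested (adjusted p = 0.166 from limma) and without a trend (0.0612), and at 0.327 after scaling to a common upper quartile (0.0925). The cause was not tested. MCL1 gained without overlap in 8 pairs with each library left out and under both scalings, but in 6 with a pseudocount of 0.1 FPKM.

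Deviations of same-numbered columns correlated across genes at -0.00266, 0.0433 and 0.0481, against -0.0679 to 0.0311 for differently numbered columns. With 3 libraries centred in each group, these values cannot decide whether the numbers pair the libraries, and the pairing is not known. With the replicate block 2310 genes and the same 2 members were altered, with MCL1 at an adjusted p of 0.00499 and BCL2A1 at 0.00244 from limma. HRAS was not altered with the block, at a log2 fold change of 0.437 (adjusted p = 0.0526 from limma). The block gave 5 altered genes in the mitochondrial death list, where AIFM1 and VDAC1 were no longer called and BNIP3, BNIP3L and PPIF were. It gave 4 transcription factors, where HIF1A and STAT3 were no longer called and ETS1, E2F1 and JUN were. In the Mcl1 stability list BTRC was called besides USP13 and GSK3A, and the same 9 ERK targets were called.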
